A study of Saccharomyces cerevisiae with 4 samples.

Results

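The 36 genes described here belong to the programme of meiosis and sporulation, read in budding yeast that was growing on glucose and not sporulating. They were chosen by gene symbol, with earlier results of these data known. They fell into 5 regulators, 17 early genes of recombination and chromosome pairing, and 14 middle and late genes of spore formation. All 36 were measured, among 5449 S. cerevisiae genes in all, each by a single probe set. The platform annotation gave 35 of the symbols, and ZIP3 was found as CST9, of which it is a synonym in NCBI's gene table. The 4 Affymetrix Yeast Genome 2.0 arrays held total RNA of 2 wild type samples (strain K699, mating type a) and 2 samples of strain Y3501, mating type a with wpl1∆::KAN. WPL1, listed as RAD61, encodes the yeast Wapl protein, which promotes the release of cohesin from chromosomes. Both groups were harvested in exponential growth in rich medium with glucose. The labels do not state how many deletion clones were used or that replicates were separate cultures, so tests measure the spread between these arrays. Same-numbered arrays share a date tag in the labels.

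Meiosis in yeast is entered by diploid a/alpha cells that run out of nitrogen and of fermentable sugar. In haploid cells and in rich medium the inducer gene IME1 is repressed, and the early genes are held off by Ume6, which brings the Sin3-Rpd3 histone deacetylase to their promoters. Once made, Ime1 turns Ume6 targets on, and the later factor Ndt80 turns on the middle genes, many of which Sum1 and Hst1 repress in growing cells. The early genes break, pair and recombine chromosomes, and the middle and late genes build the spore membrane and wall.

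Background was read from 1746 probe sets on the same array that were designed for S. pombe, a distant yeast, and have no intended target in these samples. A gene was counted as above background in an array when its log2 value was over the 95th percentile of those probe sets. The limit lay at 6.02 in wild type replicate 1, 5.99 in wild type replicate 2, 5.79 in deletion replicate 1 and 6.10 in deletion replicate 2. Below, values are given in this order, replicate 1 before replicate 2. By construction 5% of the S. pombe probe sets passed in each array, and 2.69% passed in all 4. The deleted gene served as a check of the labels. RAD61 was at 6.43 and 6.55 in wild type, above the limit, and at 3.96 and 4.44 in the deletion, below the S. pombe median of 4.42 in replicate 1 and 4.56 in replicate 2. All 6 a-cell markers and all 7 haploid markers were above the limit in every array. Of 4 alpha-cell markers, STE3 was below it in every array, but MF(ALPHA)2 and SAG1 were above it in all 4 and MF(ALPHA)1 in 3. For most of these markers, passing the limit thus did not separate cell types.

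Most of the 36 members were at or near background. In RNA from a whole culture, fewer cells with a transcript and less of it per cell cannot be told apart. Of the 36 members, 18 were above the limit in no array, 11 in 1 to 3 arrays and 7 in all 4. Over all measured genes, 3.43% were above it in no array and 92.5% in all 4. The 7 members were the regulators IME1, IME4 and UME6, the early genes ZIP1, ZIP3 and REC8, and the middle gene SMK1. With deletion replicate 2 left out, the array with the highest limit, 11 members were above the limit in all remaining arrays. A count over fewer arrays cannot fall.

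**Figure D1:**
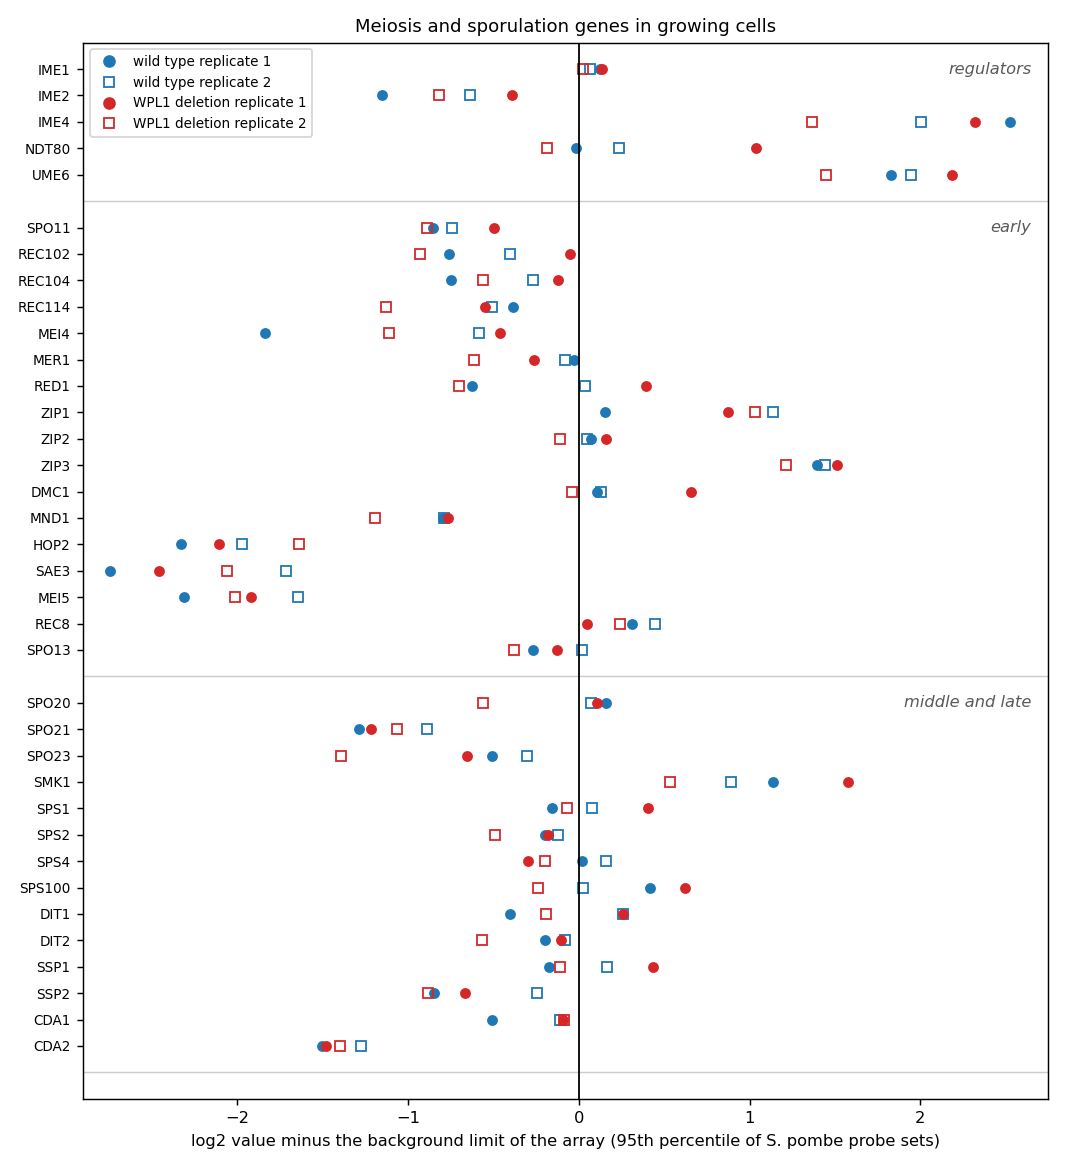
Each row is a member and each point an array, placed by its log2 value minus the background limit of that array (vertical line at 0). Blue is wild type and red the WPL1 deletion, with filled circles for replicate 1 and open squares for replicate 2. IME4, UME6, ZIP3 and SMK1 lie clear of the line in every array, while most of the other rows straddle it or lie to its left.

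Of the 5 regulators, 3 were above the limit in all 4 arrays. UME6, the DNA-binding repressor that is made in growing cells, was at 7.85 and 7.94 in wild type and 7.98 and 7.55 in the deletion, which placed it at percentile 99.9 of the background probe sets in every array. IME4, an RNA methyltransferase that promotes entry into meiosis, was at 8.54 and 8.00 in wild type and 8.11 and 7.47 in the deletion. IME4 values were thus clear of the limit by 1.37 or more in every array. In haploid cells IME4 is known to be overlapped by an antisense transcript. Double-stranded cDNA was labelled here, so sense and antisense signal cannot be told apart, for IME4 or for any other gene. IME1, the master inducer, was at 6.14 and 6.06 in wild type and 5.93 and 6.13 in the deletion. Its margins over the limit were 0.13, 0.07, 0.14 and 0.02, so IME1 passed in all 4 arrays by a narrow distance. Against the mean of the 4 limits, IME1 was below in deletion replicate 1. IME2, the protein kinase that acts after Ime1, was at 4.87 and 5.36 in wild type and 5.40 and 5.28 in the deletion, below the limit in every array. NDT80, the activator of middle genes, was at 6.01 and 6.23 in wild type and 6.83 and 5.92 in the deletion. It passed in wild type replicate 2 and deletion replicate 1 alone.

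REC8 encodes the meiotic kleisin, the subunit that takes the place of Mcd1 in the cohesin ring and holds sister chromatids together through the first division. In wild type REC8 was at 6.33 and 6.44, and in the deletion at 5.84 and 6.34, on the log2 scale. It was above the limit in every array, by 0.31 and 0.45 in wild type and by 0.05 and 0.24 in the deletion which is between percentiles 95.4 and 98.2 of the background probe sets. REC8 no longer passed in all 4 arrays with the limit at the 99th percentile, nor with the mean of the 4 limits, which its value in deletion replicate 1 missed. The deletion minus wild type difference of REC8 was -0.29 on the log2 scale (SE 0.27, and 0.16 with the replicate number as a block). It was -0.49 between the replicate 1 arrays and -0.10 between the replicate 2 arrays. The groups overlapped, and the difference did not pass limma (adjusted p = 1, and 0.996 with the replicate number as a block). Of the 4 genes of the mitotic ring, MCD1, SMC1, SMC3 and IRR1, which encode the mitotic kleisin, the SMC pair and the Scc3 subunit, all were above the limit in every array, by 0.76 to 3.44. MCD1 was at 8.19 and 9.16 in wild type and 8.30 and 8.80 in the deletion. Its difference of -0.13 (SE 0.40, and 0.17 with the block) did not pass either.

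Among the early members, those whose products make the DNA breaks were below the limit throughout. SPO11, which encodes the protein that makes the cut, was at 5.17 and 5.25 in wild type and 5.30 and 5.22 in the deletion. These values lay between percentiles 76.5 and 84.7 of the background probe sets. The SPO11 partners REC102, REC104, REC114 and MEI4 were above the limit in 0 of 4 arrays each, as was MER1, a meiotic splicing factor. Relative to the limit, MER1 was at -0.03 and -0.08 in wild type and -0.26 and -0.61 in the deletion. REC102 was at -0.76 and -0.40 in wild type and -0.05 and -0.93 in the deletion, so some values lay just under the limit. The strand exchange genes differed among themselves. DMC1, the meiotic recombinase, was at 6.13 and 6.12 in wild type and 6.45 and 6.06 in the deletion, above the limit in 3 arrays. The genes of its accessory factors, MND1, HOP2, SAE3 and MEI5, were above it in none. HOP2, SAE3 and MEI5 were also below the median of the S. pombe probe sets in every array, and no other member was.

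The genes of the synaptonemal complex, the zipper between paired chromosomes, included ZIP1 and ZIP3, which with REC8 were the early genes above the limit in all 4 arrays. ZIP3, a SUMO ligase-like factor of crossover sites, was at 7.41 and 7.44 in wild type and 7.31 and 7.32 in the deletion, at least 1.22 above the limit in each array. ZIP1, the central element of the zipper, was at 6.18 and 7.13 in wild type and 6.67 and 7.14 in the deletion. Both replicate 2 values of ZIP1 were above both replicate 1 values, by 0.95 in wild type and 0.47 in the deletion. ZIP2 was at 6.09 and 6.04 in wild type and 5.95 and 5.99 in the deletion, within 0.16 of the limit in every array and below it in deletion replicate 2. RED1, a protein of the chromosome axis, was at 5.39 and 6.03 in wild type and 6.19 and 5.40 in the deletion, and passed in 2 arrays. SPO13, which guards cohesion in the first division, was at 5.75 and 6.01 in wild type and 5.67 and 5.72 in the deletion, above the limit in wild type replicate 2 alone.

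Of the 14 middle and late genes, SMK1 was the single member above the limit in all 4 arrays. SMK1, a MAP kinase of spore wall assembly, was at 7.16 and 6.88 in wild type and 7.37 and 6.64 in the deletion, 0.54 or more over the limit. SPS100, a late spore wall gene, was at 6.44 and 6.02 in wild type and 6.41 and 5.86 in the deletion, above the limit in all arrays other than deletion replicate 2. SPO20, which encodes a SNARE of the prospore membrane, was at 6.18 and 6.06 in wild type and 5.90 and 5.54 in the deletion, and also missed the limit in deletion replicate 2 alone. SPS4 was at 6.04 and 6.15 in wild type, just above the limit, and at 5.49 and 5.90 in the deletion, below it in both arrays. With the deletion arrays set to their limits or to the measured value where higher, the wild type mean of SPS4 exceeded that of the deletion by at least 1.11-fold (limma adjusted p = 1), with measured means of 6.09 and 5.70.

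A further 3 sporulation genes crossed the limit in both directions. SSP1, which shapes the leading edge of the prospore membrane, was at 5.85 and 6.16 in wild type and 6.23 and 5.99 in the deletion. SPS1, a kinase of spore formation, was at 5.86 and 6.07 in wild type and 6.20 and 6.03 in the deletion. DIT1, needed for the dityrosine layer of the spore wall, was at 5.62 and 6.25 in wild type and 6.05 and 5.91 in the deletion. Each of these 3 passed in wild type replicate 2 and deletion replicate 1 and failed in the other arrays, as NDT80 and RED1 did. SPS1 lies beside SPS2, and DIT1 beside DIT2, which makes the second enzyme of the dityrosine pathway. SPS2 and DIT2 were above the limit in no array, and neither were SPO21, SPO23, SSP2 and the chitin deacetylase genes CDA1 and CDA2.

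Early and middle or late genes passed at like rates at this limit. Of 17 early genes, 5 and 7 were above it in the wild type arrays and 6 and 3 in the deletion arrays. Of 14 middle and late genes, the counts were 4, 7, 6 and 1 in the same order. The mean share over the 4 arrays was 30.9% for early and 32.1% for middle and late genes, against 94.8% for all genes. The order of the classes depended on the limit. With the limit at percentile 75 of the background probe sets, the mean share was 76.5% for early and 85.7% for middle and late genes, and at the median it was 80.9% and 96.4%. At percentile 99 the order was the other way, with 11.8% for early and 7.14% for middle and late genes. The shares above the 95th percentile in all 4 arrays were 17.6% and 7.14%. Apart from MEI4 in wild type replicate 1, the early values below the S. pombe median were those of HOP2, SAE3 and MEI5. These shares describe the 2 lists, whose members are not replicates, and were not tested.

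**Figure D2:**
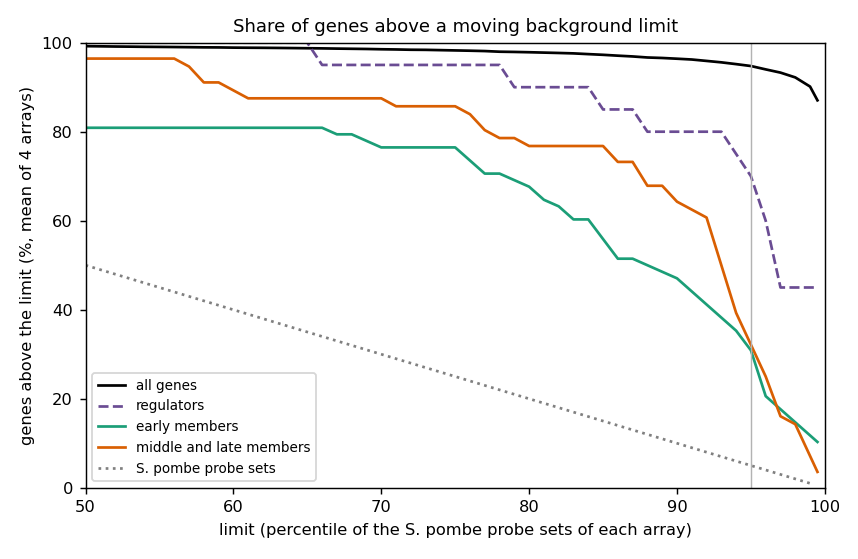
The share of genes above a limit (vertical axis, percent, mean of the 4 arrays) is drawn against the limit, given as a percentile of the S. pombe probe sets. Lines are all genes (black), regulators (dashed purple), early members (green) and middle and late members (orange), with the S. pombe probe sets dotted. At the 95th percentile (grey line) early and middle or late members are at 30.9% and 32.1%, while all genes are at 94.8%.

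The number of members above the limit varied between arrays. Wild type had 12 in replicate 1 and 18 in replicate 2, and the deletion had 16 and 7, so the order of the genotypes turned between the replicates. The limit itself was lowest in the array with 16 and highest in the array with 7. With 1 common limit of 5.98 for all arrays, an alternative added after the limits had been seen to differ, the counts were 14 and 18 in wild type and 12 in each deletion array. With that limit 6 members passed in all 4 arrays, as REC8 and IME1 dropped out and DMC1 came in. No difference between genotypes is read from these counts.

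Across all 5449 genes, 0 passed limma at an adjusted p under 0.05, which is 0% of genes, and 0 passed with the replicate number as a block, again 0%. No member passed in either fit. The deleted gene RAD61, with a measured log2 difference of -2.29, did not pass either (limma adjusted p = 1, and 0.141 with the block), so a missed threshold here does not show that a gene did not differ. At an unadjusted p under 0.05, 1 of 36 members passed without the block, against 0.184% of all genes. This was SPO23, which was above the limit in no array. With the block, 6 of 36 members passed at an unadjusted p under 0.05, against 2.86% of all genes, all with lower values in the deletion. They were IME4, REC114, MER1, SPO20, SPO23 and SPS4. REC114, MER1 and SPO23 were above the limit in no array, so no difference is read for them. IME4 had a log2 difference of -0.48 (SE 0.34, and 0.14 with the block), being -0.43 in the first pair of arrays and -0.53 in the other. SPO20 had -0.40 (SE 0.25, and 0.15 with the block), with -0.28 and -0.52. For both, limma gave an adjusted p of 1 without the block and 0.996 with it. Leaving out 1 array gave IME4 -0.16 and SPO20 -0.22 without deletion replicate 2, and -0.80 and -0.58 without deletion replicate 1. SPS4, below the limit in both deletion arrays, had a measured difference of -0.40 (SE 0.26, and 0.15 with the block), with -0.54 and -0.25.

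The other members that were above the limit in both arrays of a group, REC8 aside, had differences between -0.13 and 0.25. The SEs given here are from the fit without the block, which does not account for the shared date tag. With the block the SEs of these members ran from 0.14 (ZIP3) to 0.18 (UME6). UME6 had -0.13 (SE 0.26) and IME1 -0.07 (SE 0.24). ZIP1 had 0.25 (SE 0.39), DMC1 0.13 (SE 0.25), ZIP2 -0.09 (SE 0.23) and ZIP3 -0.11 (SE 0.23). ZIP3 had the closest replicates, with differences of -0.11 in replicate 1 and -0.12 in replicate 2. SMK1 had -0.015 (SE 0.32) and SPS100 -0.09 (SE 0.31). The SMK1 difference was 0.21 in replicate 1 and -0.24 in replicate 2, so its replicates had opposite signs. UME6 (0.13 and -0.38), IME1 (-0.21 and 0.07) and DMC1 (0.32 and -0.06) also had opposite signs in the replicates. With arrays centred on the gene median SMK1 turned to 0.0031. With quantile normalization over the genes SMK1 was at 0.025, IME1 at 0.017 and ZIP2 at 0.0039.

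In the values as deposited, both deletion arrays were below both wild type arrays for 11 of 36 members, against 8.61% of all genes, and both were above them for 0 of 36, against 5.32%. The 11 were REC114, MER1, ZIP2, ZIP3, MND1, SPO13, SPO20, SPO23, SPS2, SPS4 and DIT2. This split depended on the scaling. With arrays centred on the gene median it was 8 lower and 2 higher, against 8.81% and 6.96% of all genes, and with quantile normalization over the genes 7 lower and 5 higher, against 8.75% and 7.12% of all genes. Of the 11, 6 were above the limit in no array. Among the 187 genes of the whole array set that were above it in none, 19.8% were lower in this sense and 8.02% higher, and among the S. pombe probe sets 14.4% were lower and 11.2% higher.

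The median log2 difference over the 36 members was -0.09, with 22 below 0, against a median of -0.03 and 56.4% below 0 over all genes. With quantile normalization over the genes the median over the members was 0.01. It was -0.01 in replicate 1 and -0.24 in replicate 2 as deposited, against 0.04 and -0.10 over all genes. In replicate 2, 32 of 36 members were below 0, against 65.5% of all genes and 43.7% of the S. pombe probe sets. Among genes above the limit in 1 to 3 arrays the share was 78.0%, and among those above it in none 70.1%. With centred arrays 25 members were below 0 in replicate 2, against 52.4% of all genes. With quantile normalization over the genes 22 members were, against 52.9% of all genes. The genotype difference of a member within a replicate had a median size of 0.25, against 0.15 over all genes and 0.22 over the S. pombe probe sets. Between replicates of a genotype the median size was 0.27 for members, 0.34 for all genes and 0.26 for S. pombe probe sets. These sizes of the members' differences were near those of probe sets without a target, unlike the share below 0 in replicate 2 in the values as deposited.

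**Figure D3:**
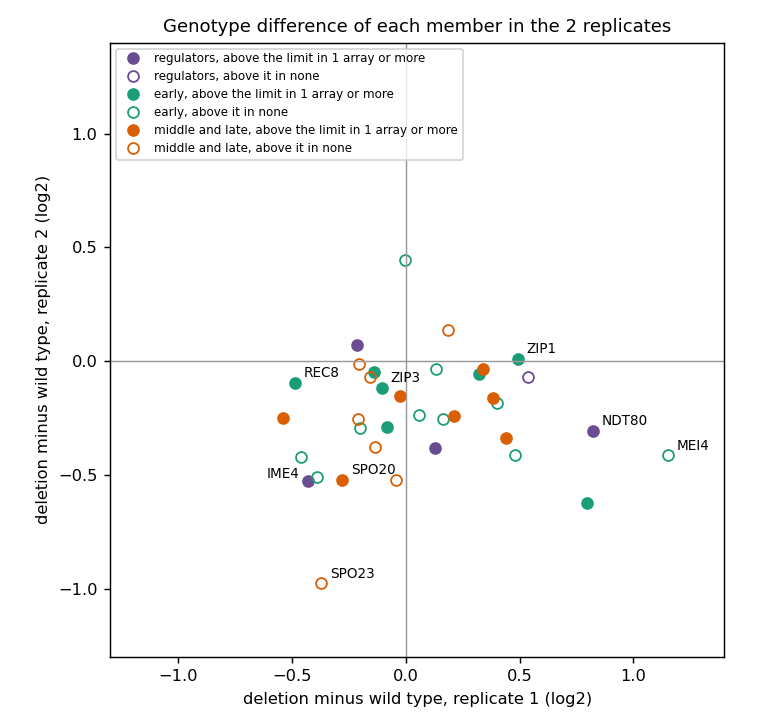
Each point is a member, placed by its deletion minus wild type difference (log2) in replicate 1 (horizontal) and replicate 2 (vertical). Filled points were above the background limit in 1 array or more and open points in none. Most points, 32 of 36, lie below 0 in replicate 2, while 19 of 36 lie below 0 in replicate 1. Values are as deposited, and the count in replicate 2 was 25 with centred arrays and 22 with quantile normalization.

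The genes that keep meiosis off in growing cells were well measured. All 11 genes of repression were above the limit in every array, by 1.13 to 4.42. They include SIN3 and RPD3 of the deacetylase, UME1, the middle gene repressors SUM1, HST1 and RFM1, the Tup1-Cyc8 pair and RME1, which represses IME1 in haploid cells. RME1 was at 8.60 and 8.92 in wild type and 8.63 and 8.26 in the deletion. All 6 genes listed under induction (RIM11, RIM15, MCK1, RIM101, MSN2 and SWI5) were also above the limit in every array, by 1.61 to 3.95. That list holds SWI5 by the choice of genes, and SWI5 is not itself an inducer of meiosis. Of these 17 genes, 0 passed limma with or without the block, against 0% of all genes. At an unadjusted p under 0.05 there were 0 in either fit, against 0.184% of all genes without the block and 2.86% with it.

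Meiosis genes outside the 36 gave a more mixed picture. Of 13 other early genes, 7 were above the limit in all 4 arrays and 4 in none, and of 22 other middle and late genes 10 and 8. The 17 in all 4 together fell to 6 with the limit at the 99th percentile. The axis protein gene HOP1 and the kinase gene MEK1 were below the limit throughout, while REC107, a partner of Rec114 and Mei4 in break formation, was at 8.60 and 7.87 in wild type and 8.54 and 7.92 in the deletion. Of the 35, 0 passed limma with or without the block, against 0% of all genes. In either fit 0 were at an unadjusted p under 0.05, against 0.184% of all genes without the block and 2.86% with it. Over all the lists of other genes, the 4 with the smallest unadjusted p without the block were PCK1, MSH4, ADH2 and JEN1, of which MSH4, a crossover factor, is the meiotic one. With the block the smallest was that of the a-cell marker MFA1, with a difference of 0.45 (limma unadjusted p = 0.023, adjusted p = 0.996). MFA1 was the single gene of these lists under an unadjusted 0.05 in that fit. MSH4 was at 6.50 and 6.48 in wild type and 6.31 and 5.81 in the deletion, with a difference of -0.43 (SE 0.27, and 0.17 with the block). Of the 5 markers of starved or non-fermenting cells, ADH2, JEN1 and ICL1 were above the limit in all 4 arrays. ADH2 had a difference of -0.43 (SE 0.27, and 0.21 with the block) and JEN1 of -0.33 (SE 0.23, and 0.14 with the block). PCK1 was higher in both deletion arrays, at 6.45 and 5.85, than in wild type, at 5.52 and 5.81. PCK1 was above the limit in deletion replicate 1 alone. The part of growth state in the members' values was not tested.

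**Figure D4:**
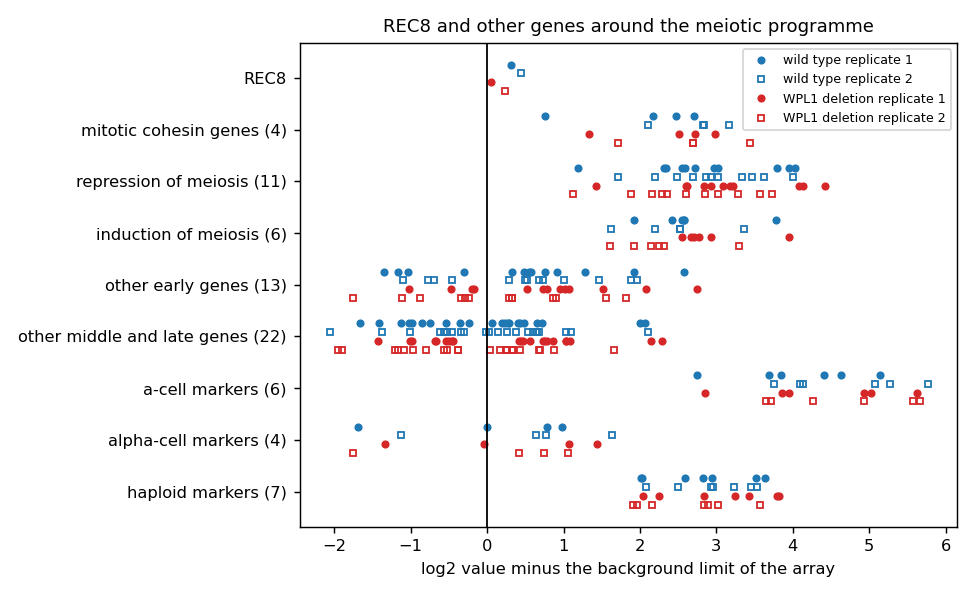
Each point is 1 gene in 1 array, placed by its log2 value minus the background limit of that array, for REC8 and for 8 lists of other genes with their number of measured genes in brackets. Blue is wild type and red the WPL1 deletion, with filled circles for replicate 1 and open squares for replicate 2. Mitotic cohesin genes, the lists of repression and induction, and the a-cell and haploid markers lie wholly to the right of the line. The lists of other meiosis genes lie on both sides of it. The induction list includes SWI5, which is not itself an inducer of meiosis.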

How the data were processed

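The authors deposited log2 expression values for 10928 probe sets, which the submitters' processing notes credit to RMA and affy, with no version stated. RMA scales arrays to each other, which makes each difference relative to the rest of the transcripts. The range of the values fits a log2 scale. NCBI's gene table of assembly R64 placed 5498 probe sets on 5449 S. cerevisiae genes, and probe sets of 1 gene were averaged. A further 1746 named probe sets belong to S. pombe. Sample titles gave the groups and replicates. The test was limma 3.58.1 under R 4.3.3 with moderated variances, two-sided and Benjamini-Hochberg adjusted over all genes, on 4 arrays without covariates. A prior check on simulated data required only that mean estimates of set differences were close to the truth. It set no share of genes that the test had to find. Labels give same-numbered arrays a shared date tag, so numbers pair the arrays (deviations from group means correlated with r = 0.747 across genes). A difference is given for members above background in both arrays of a group. All members were described, with values in every array for the regulators, REC8 and members above background in any array. From the other lists, genes past the test were to be named, or else the 4 smallest p. The members and lists were chosen with earlier results of these data known. Alternatives were the replicate block, other scalings, limits, probe set rules, filters and priors, and leaving out each array. Promoter motifs were not analysed here. The number of arrays limits the precision.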

Additional observations from a re-analysis of the deposited data

How the results depend on the processing

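No call changed among the members: 0 of 36 passed limma under any alternative, the replicate block included. Over all genes 0 passed under every setting other than leaving out arrays, where the count ran from 0 to 3, with 3 without wild type replicate 1 and 1 without wild type replicate 2. The REC8 difference was -0.29 with the replicate block and ran from -0.54 to -0.04 with arrays left out, below 0 under every setting, and the median over the members ran from -0.22 to -0.0026 with arrays left out and was 0.014 with quantile normalization over the genes. The counts above background depended on the limit. Members above it in all 4 arrays numbered 7, against 14 with the limit at the 90th percentile, 3 at the 99th (IME4, UME6 and ZIP3), 18 where 1 array sufficed and 6 with the mean of the 4 limits, where REC8 and IME1 were lost and DMC1 gained. For early genes the count of 3 became 6, 1 and 7, and for middle and late genes the count of 1 became 4, 0 and 7. With arrays left out these ran from 7 to 11, from 3 to 5 and from 1 to 3, each highest without deletion replicate 2. Such a count asks for the remaining arrays only, so it could stay or rise but not fall. The 17 other meiosis genes became 6 at the 99th percentile. With arrays centred on the gene median the SMK1 difference was 0.0031, and with quantile normalization over the genes IME1 was at 0.017, ZIP2 at 0.0039 and SMK1 at 0.025. With arrays left out, IME4 ran from -0.80 to -0.16, SPO20 from -0.58 to -0.22, SPS4 from -0.60 to -0.19, ZIP1 from -0.23 to 0.73, SMK1 from -0.38 to 0.35, SPS100 from -0.36 to 0.19, IME1 from -0.17 to 0.027, DMC1 from -0.061 to 0.325 and UME6 from -0.34 to 0.085. Such fits mix genotype and date, and the cause of these turns was not tested.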
